A study of Mus musculus with 8 samples.

Results

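The CXC chemokine genes were followed in bone marrow-derived dendritic cells (BMDCs) as a list of 10 named members: Cxcl1, Cxcl2, Cxcl3, Cxcl5, Cxcl9, Cxcl10, Cxcl11, Cxcl14, Cxcl16 and Pf4. They are 10 of the 47937 gene IDs in the count tables, and each symbol mapped to 1 ID. The list was set by gene name, with earlier results of these data known. RNA-seq was done on 8 libraries in 4 groups of 2, from WT and 3xGrk-/- cells (KO in the labels), untreated or treated with LPS, the bacterial lipopolysaccharide sensed by TLR4.

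The 3xGrk-/- cells came from mice with the Vav-iCre transgene, floxed alleles of Grk2 and Grk6 (fl/fl) and a constitutive deletion of Grk3 (Grk3-/-). This Cre acts from early blood cell precursors onward, so that every hematopoietic lineage is affected while the Grk3 deletion is carried by every cell of the animal. The WT cells came from control animals without Cre. Mice were on a C57BL/6J background and older than 8 weeks. Marrow was cultured for 8 days with GM-CSF at 20 ng/ml, which yields dendritic cells together with macrophages, and LPS was given at 20 ng/ml for 24 h. The study took RNA in technical replicates, and nothing in the sources used here says that the 2 libraries of a group came from separate cultures or animals, so the p-values below measure only the spread between libraries, which may be technical.

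The 8 libraries held 4713305 to 6933358 reads on genes. Reads on the targeted genes were lower in 3xGrk-/- cells, with log2 fold changes without and with LPS of -1.11 and -1.89 for Grk2, -1.19 and -1.54 for Grk6, and -0.36 and -0.42 for Grk3. Most Grk3 reads remained, at 267 and 263 CPM in untreated 3xGrk-/- against 338 and 341 CPM in untreated WT libraries, and 343 and 335 against 460.1 and 444 CPM after LPS. Counts per gene cannot show whether these reads come from outside the deleted part. At the protein level the study reported GRK2, GRK3 and GRK6 as almost completely lost in BMDCs of this genotype, by immunoblot. All 6 dendritic cell markers examined, Itgax, Flt3, Zbtb46, H2-Ab1, Cd74 and Ccr7, were detected in every group. Without LPS 3 were higher in 3xGrk-/- than in WT cells. Means were 1083 against 947 CPM for Itgax, 33.5 against 17.2 for Flt3 and 1450 against 1224 for Ccr7. The other 3 were lower, H2-Ab1 (log2 fold change -1.67), Cd74 (-0.90) and Zbtb46 (mean 114 against 152 CPM). Among LPS-treated cells 2 were higher in 3xGrk-/- cells, Itgax (2.34) and Flt3 (1.35), and 4 lower. Of all genes, 22.1% were higher and 22.7% lower in untreated and 24.7% and 24% in LPS-treated cells. The summed level of the 6 markers was 17699 to 17938 CPM in untreated WT against 10064 to 10290 CPM in untreated 3xGrk-/- libraries. After LPS it was 12778 to 14045 CPM against 11089 to 11317 CPM. Most of the untreated sum was Cd74 (mean 11952 CPM in WT and 6392 in 3xGrk-/- cells) and H2-Ab1 (3526 and 1105). The part of these shifts in the chemokine results was not tested. The second LPS-treated 3xGrk-/- library stood apart, with 2.16% of its reads on Gm42418, a gene that overlaps ribosomal RNA, against at most 0.638% in the others. Without that gene in the library sizes, every call on a member was the same.

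CXC chemokines are small secreted proteins, named for the spacing of their first conserved cysteines, that bind G protein-coupled receptors and direct the migration of leukocytes. Members with an ELR motif (Cxcl1, Cxcl2, Cxcl3, Cxcl5) attract neutrophils through Cxcr2 and are induced by NF-kB. Cxcl9, Cxcl10 and Cxcl11 lack that motif, are induced by interferons and attract T and NK cells through Cxcr3. GRKs are the kinases that phosphorylate activated receptors of this class and start their desensitization.

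The 10 genes fell into distinct patterns over the 4 groups. The ELR genes were higher in 3xGrk-/- cells in both states and rose with LPS in both genotypes. Pf4 and Cxcl14 were high in 3xGrk-/- cells and fell there with LPS. Cxcl10 was lower in untreated and higher in LPS-treated 3xGrk-/- cells than in WT cells. Levels below are CPM, read counts scaled to library size by the TMM method over all 8 libraries, and log2 fold changes are given with their standard error (SE) and the adjusted p of edgeR's quasi-likelihood test (Benjamini-Hochberg over all genes tested).

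**Figure D1:**
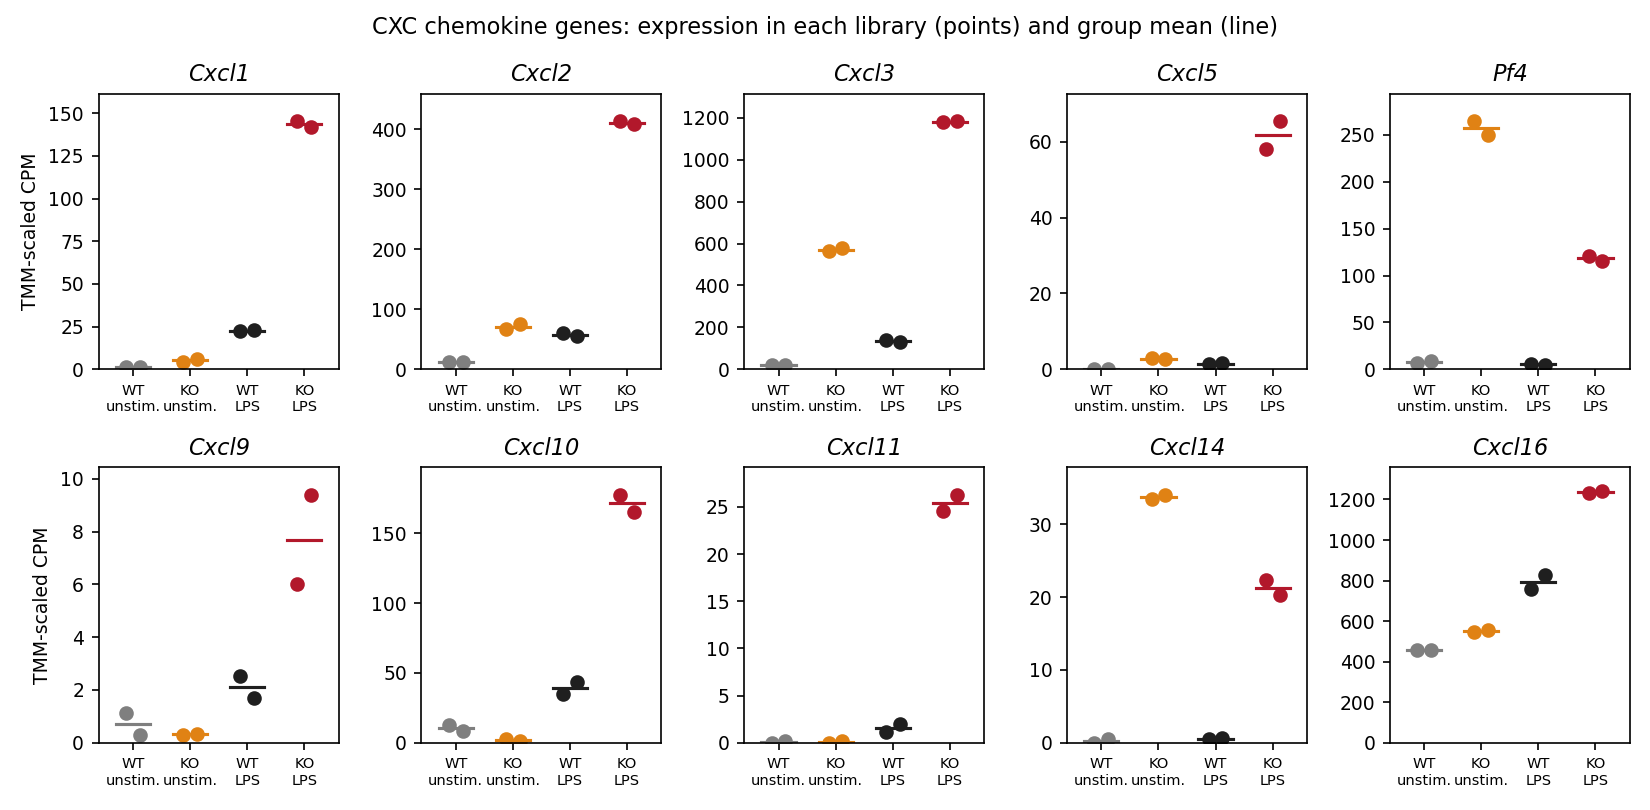
Expression of each member in TMM-scaled CPM (vertical axes, linear, starting at 0) in the 4 groups, with 1 point per library and a line at the mean of the 2 libraries. Cxcl3 stood at 562 and 578 CPM in untreated 3xGrk-/- cells against 22.2 and 20.6 in untreated WT cells, and in the Cxcl10 panel the untreated 3xGrk-/- libraries lie below and the LPS-treated ones above those of WT, without overlap.

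In untreated cells, 8 of the 10 members had enough reads for the test. Of these, 7 were higher and 1, Cxcl10, was lower in 3xGrk-/- cells, where 22.1% of the 12000 genes tested were called higher and 22.7% lower. Cxcl1, Cxcl5 and Cxcl14 passed the filter on low counts only through the reads of the 3xGrk-/- group and Cxcl10 only through those of WT, so the filter itself selected for a difference in these 4, and Cxcl9 and Cxcl11 did not pass it. The other 4, Cxcl2, Cxcl3, Cxcl16 and Pf4, passed through both groups and were all higher, with log2 fold changes from 0.27 to 5.03. In LPS-treated cells all 10 members were tested and all 10 were higher in 3xGrk-/- cells, where 24.7% of 11830 genes were called higher. Cxcl5, Cxcl11 and Cxcl14 passed the filter only through the 3xGrk-/- group, and the 7 that passed through both groups ran from 0.64 for Cxcl16 to 4.46. A log2 fold change of at least 1 was reached by 6 of the members called higher without LPS (4.82% of all genes) and by 9 with LPS (10.3%), and Cxcl10 was lower by more than 1 without LPS (7.22% of all genes, and 6.43% with LPS). At an assumed coefficient of variation of 0.4 between replicates, 6 members without LPS and 8 with LPS were called, beside 3.73% and 6.61% of all genes.

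**Figure D2:**
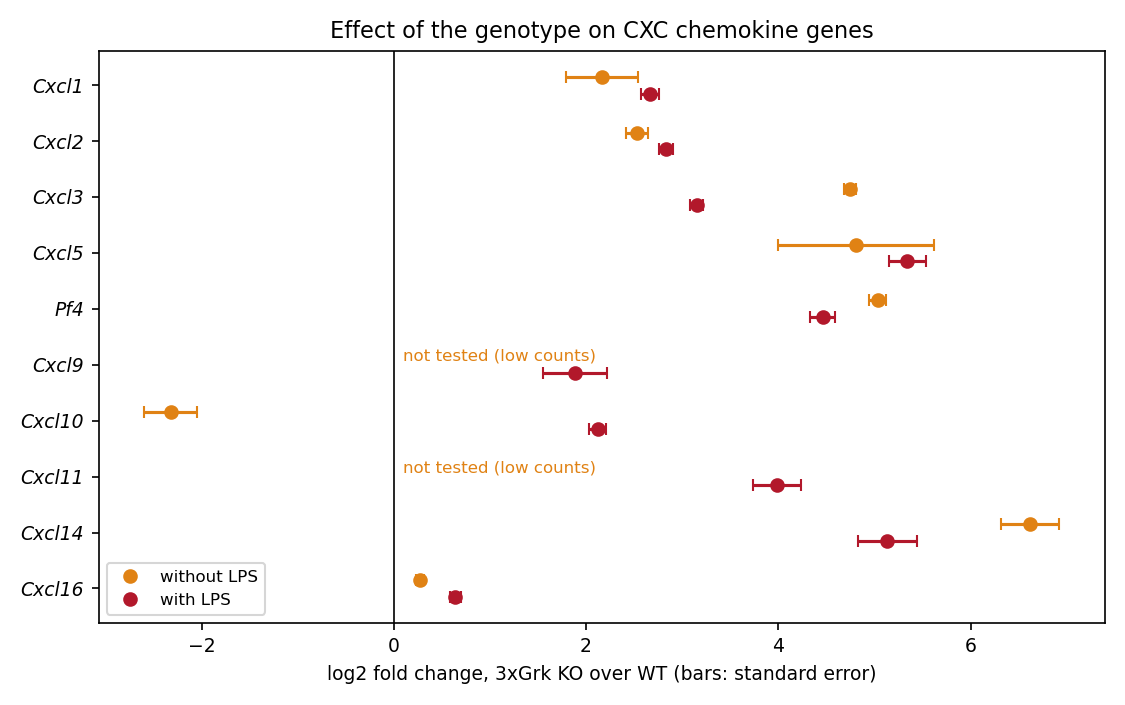
Log2 fold change of 3xGrk-/- over WT (horizontal axis; bars are the standard error) for each member, without LPS in orange and with LPS in red, from 2 libraries per group. All plotted effects lie right of 0 except that of Cxcl10 without LPS at -2.32, and Cxcl9 and Cxcl11 had too few reads to be tested without LPS.

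Cxcl1, Cxcl2 and Cxcl3 are close relatives that sit in the same direction on chromosome 5 (GRCm38). Cxcl1 lies at chr5:90891241-90893115, Cxcl2 at chr5:90903871-90905938 and Cxcl3 at chr5:90786103-90789600, all on the plus strand. The 120 bases before the first annotated transcript base of each are shown because the 3 genes were higher in the same comparisons and their starts are alike. The sequences are from RefSeq promoters on GRCm38.p6 and end directly before the earliest start annotated in RefSeq or GENCODE, which for Cxcl3 is the RefSeq start, 2 bases before the start given above. Capitals mark matches to the NF-kB consensus and to the TATA-like letters ATAAAA, on either strand.
Cxcl1, chr5:90891121-90891240, plus strand: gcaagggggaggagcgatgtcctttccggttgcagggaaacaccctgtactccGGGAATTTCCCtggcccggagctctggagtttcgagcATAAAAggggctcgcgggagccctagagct
Cxcl2, chr5:90903751-90903870, plus strand: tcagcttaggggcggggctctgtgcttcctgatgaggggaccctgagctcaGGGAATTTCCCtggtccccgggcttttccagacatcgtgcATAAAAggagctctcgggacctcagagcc
Cxcl3, chr5:90785981-90786100, plus strand: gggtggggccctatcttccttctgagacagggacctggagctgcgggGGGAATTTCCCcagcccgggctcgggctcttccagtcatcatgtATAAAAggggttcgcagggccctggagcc
Each window held the same NF-kB match, GGGAATTTCC, which reached from 67 to 58 bases before the start in Cxcl1, from 69 to 60 in Cxcl2 and from 73 to 64 in Cxcl3. Its reverse strand gave an overlapping match shifted by 1 base, so that 11 letters are in capitals. ATAAAA began 30 bases before the start in Cxcl1 and 29 in Cxcl2 and Cxcl3. Among 32851 promoter windows of 250 bases, 3.90% held the NF-kB consensus and 17.0% ATAAAA. The matches are descriptions of the letters, and binding of a factor was not measured here.

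Cxcl1, the neutrophil attractant also called KC (ENSMUSG00000029380.11), had 1.15 and 1.12 CPM in untreated WT and 4.19 and 6.25 CPM in untreated 3xGrk-/- libraries. With LPS the levels were 22.5 and 22.7 CPM in WT and 145 and 142 CPM in 3xGrk-/- cells. The libraries of the genotypes did not overlap in either state, and the untreated WT level rested on 6 and 8 reads. Non-overlapping libraries were seen in 69.1% of all genes tested without LPS and in 72.6% with LPS. The log2 fold change of Cxcl1 between genotypes was 2.16 without LPS (SE 0.374, adjusted p = 3.22e-08) and 2.66 with LPS (SE 0.0935, adjusted p = 1.14e-15). Without LPS Cxcl1 passed the filter on low counts only through the 3xGrk-/- libraries, and at an assumed coefficient of variation of 0.4 between replicates its call was lost (adjusted p = 0.0555). LPS raised Cxcl1 by 4.30 on the log2 scale in WT (SE 0.245) and by 4.80 in 3xGrk-/- cells (SE 0.127), and the difference of 0.50 between these responses did not pass the test (95% interval -0.33 to 1.33, adjusted p = 0.449).

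Cxcl2, known as MIP-2 (ENSMUSG00000058427.10), had 12.4 and 12.1 CPM in untreated WT and 66.7 and 74.7 CPM in untreated 3xGrk-/- libraries. After LPS it stood at 61.1 and 54.8 CPM in WT and at 414 and 408 CPM in 3xGrk-/- libraries. The lower untreated 3xGrk-/- library, at 66.7 CPM, lay above the higher LPS-treated WT library, at 61.1 CPM. The genotype effect was 2.53 without LPS (SE 0.115, adjusted p = 1.01e-104) and 2.83 with LPS (SE 0.0732, adjusted p = 6.82e-18). The responses to LPS were 2.24 in WT and 2.54 in 3xGrk-/- cells, with a difference of 0.30 (95% interval 0.03 to 0.58, adjusted p = 0.107).

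Cxcl3 (ENSMUSG00000029379.10), a further Cxcr2 ligand, showed the larger effect without LPS. Its levels were 22.2 and 20.6 CPM in untreated WT and 562 and 578 CPM in untreated 3xGrk-/- libraries. LPS brought the WT libraries to 138 and 129 CPM and the 3xGrk-/- libraries to 1179 and 1183 CPM. Untreated 3xGrk-/- cells therefore held more Cxcl3 reads than WT cells after 24 h of LPS. The fold change between genotypes was 26.8 without LPS (log2 4.74, SE 0.0632, adjusted p returned as 0 by edgeR) and 8.88 with LPS (log2 3.15, SE 0.0644, adjusted p = 1.80e-19). The LPS response was 2.64 in WT and 1.05 in 3xGrk-/- cells, and the difference of -1.59 passed the test (SE 0.0919, adjusted p = 7.10e-14). At a coefficient of variation of 0.4 neither the response of 3xGrk-/- cells (adjusted p = 0.429) nor the difference (adjusted p = 1.0) was called. Of all 50-base stretches of the Cxcl2 transcripts, 5.84% also occur in Cxcl3, and of those of Cxcl3, 4.29% occur in another gene, so a small part of the reads of the pair could have been dropped or split in counting.

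Cxcl5 (ENSMUSG00000029371.7, chr5:90759360-90761624), an ELR chemokine known as LIX and best known from epithelial and stromal cells, was almost absent without stimulation. It had 0 and 1 reads in untreated WT, 20 and 15 in untreated 3xGrk-/-, 7 and 11 in LPS-treated WT, and 320 and 403 in LPS-treated 3xGrk-/- libraries. In CPM the LPS-treated levels were 1.27 and 1.70 in WT and 58.2 and 65.3 in 3xGrk-/- cells. The ratio of pooled reads between genotypes, scaled to library size, was 34.8 without LPS (exact 95% interval 5.85 to 1413, counting error only) and 41.2 with LPS (25.9 to 70.0). The fitted log2 fold changes were 4.81 without (SE 0.813, adjusted p = 2.04e-09) and 5.34 with LPS (SE 0.196, adjusted p = 2.17e-15). Cxcl5 passed the filter on low counts only through the 3xGrk-/- libraries in both states, so the filter itself selected for this difference. Its LPS response was 3.91 in WT, based on 1 untreated read, and 4.45 in 3xGrk-/- cells, and the interval of the difference, -2.35 to 3.43, was wide.

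Pf4 (ENSMUSG00000029373.7, chr5:90772435-90773383), also called Cxcl4, is stored in platelets and is also made by macrophages. It binds glycosaminoglycans and is no ligand of Cxcr2. The 120 bases before its start are shown because Pf4 lies between Cxcl5 and Cxcl3 yet moved otherwise with LPS, and the only marked match is ATAAAA on the reverse strand.
Pf4, chr5:90772315-90772434, plus strand: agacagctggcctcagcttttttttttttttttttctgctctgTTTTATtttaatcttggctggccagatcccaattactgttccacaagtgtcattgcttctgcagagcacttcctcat
No NF-kB consensus was found in the 250 bases before Pf4, which says only that these letters are not in this window.

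The level of Pf4 was 6.69 and 8.69 CPM in untreated WT and 265 and 249.9 CPM in untreated 3xGrk-/- libraries. After LPS it was 5.99 and 4.80 CPM in WT and 121 and 116 CPM in 3xGrk-/- cells. Every 3xGrk-/- library lay above every WT library, and within 3xGrk-/- cells the LPS-treated libraries were the low ones. The genotype effect was 5.03 on the log2 scale without LPS (SE 0.0901, adjusted p returned as 0 by edgeR) and 4.46 with LPS (SE 0.134, adjusted p = 7.41e-17). With LPS, Pf4 fell by 1.12 on the log2 scale in 3xGrk-/- cells (adjusted p = 1.55e-14), a call lost at a coefficient of variation of 0.4 (adjusted p = 0.365). The WT response of -0.55 (adjusted p = 0.0285) rested on 31 to 62 reads per library and lost its call without untreated WT replicate 2 (-0.32, adjusted p = 0.393), without LPS-treated WT replicate 2 (-0.38, adjusted p = 0.252) in DESeq2 (-0.54, adjusted p = 0.0599) and at that coefficient of variation (-0.52, adjusted p = 0.891). The difference between the responses, -0.57, did not pass the test (95% interval -1.02 to -0.13, adjusted p = 0.0525), but did so without untreated WT replicate 2 (-0.79, adjusted p = 0.0366).

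Because Pf4 is best known from platelets, markers of platelets and megakaryocytes were examined beside it. The summed level of 11 such genes was 37.1 to 38.4 CPM in untreated WT, 76.9 to 83.4 CPM in untreated 3xGrk-/-, 23.6 to 26.8 CPM in LPS-treated WT and 20.4 to 26.4 CPM in LPS-treated 3xGrk-/- libraries. Most of the untreated sum in 3xGrk-/- cells was Ppbp, itself a CXC chemokine of this cluster, at 65.8 and 70.2 CPM. Gp1ba and Gp9 had no read in untreated 3xGrk-/- cells, and Gp1ba, Gp1bb, Gp5 and Gp9 none in LPS-treated ones. Itga2b, the platelet integrin subunit, was lower in 3xGrk-/- cells (log2 fold change -1.90 without and -2.61 with LPS), and Clec1b was higher (2.63 and 4.25). Of the 11 genes, 3 were tested without LPS, with 2 higher and 1 lower, and 5 with LPS, with 4 higher and 1 lower. Gp6, a collagen receptor of platelets (2.20), and Tubb1, a platelet tubulin (1.71), were tested with LPS alone and were higher, and were named after their values were seen. The macrophage markers Adgre1, Csf1r, Cd68, Mertk, Fcgr1 and Mrc1 moved with the genotype: 5 of 6 were higher and 1 lower without LPS, all 6 were higher with LPS, and their summed level was 657 to 681 CPM in untreated WT against 1342 to 1399 CPM in untreated 3xGrk-/- cells, and 321 to 324 CPM against 2361 to 2399 CPM after LPS. Over all genes 22.1% were higher and 22.7% lower without LPS, and 24.7% and 24% with LPS. The part of these shifts in the chemokine results was not tested. In bulk RNA, fewer or more cells of a type and less or more RNA per cell cannot be told apart.

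Cxcl14 (ENSMUSG00000021508.10, chr13:56288643-56296551, minus strand), a chemokine outside the clusters of chromosome 5 that is known from epithelia and stroma, was close to absent in WT cells. It had 0 and 4 reads in untreated and 3 and 4 reads in LPS-treated WT libraries, against 224 and 196 reads in untreated and 123 and 125 reads in LPS-treated 3xGrk-/- libraries. In 3xGrk-/- cells this was 33.5 and 34.0 CPM without and 22.4 and 20.3 CPM with LPS. All 4 libraries of the 3xGrk-/- genotype stood apart from all 4 of WT. The ratio of pooled reads was 104 without LPS (exact 95% interval 40.5 to 385, counting error only) and 36.4 with LPS (17.4 to 91.4). The fitted log2 fold changes were 6.62 (SE 0.301, adjusted p = 2.84e-107) and 5.14 (SE 0.309, adjusted p = 8.65e-12). In both states Cxcl14 passed the filter on low counts only through the 3xGrk-/- libraries, so the filter itself selected for this difference. The response of Cxcl14 to LPS in 3xGrk-/- cells was -0.67 (SE 0.130, adjusted p = 7.82e-05), a call lost at a coefficient of variation of 0.4 (-0.66, adjusted p = 0.845). In WT, 4 and 7 reads per group were too few to show a response (0.82, 95% interval -0.92 to 2.55, adjusted p = 0.417). Without untreated WT replicate 2, which held all 4 of the untreated reads, the WT response was called (4.83, adjusted p = 0.0487), and so was the difference between the responses (-5.48, adjusted p = 0.0306), which was -1.48 with all libraries (adjusted p = 0.206).

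Stromal cells, a known source of Cxcl5 and Cxcl14, were examined through Col1a1, Col1a2, Col3a1, Dcn, Lum, Pdgfra and Pdgfrb. Their summed level was 1.53 to 2.94 CPM in untreated WT and 2.26 to 2.99 CPM in untreated 3xGrk-/- cells, where Dcn and Lum had no read. After LPS it was 13.5 to 23.2 CPM in WT and 138 to 149 CPM in 3xGrk-/- cells, of which Dcn alone made 127 and 113 CPM. All 7 genes had reads in both LPS-treated groups, and 4 of the 6 tested were higher and 1 lower in 3xGrk-/- cells, beside 24.7% and 24% of all genes. The part of the stromal shift in the results for Cxcl5 and Cxcl14 was not tested.

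The 3 interferon-induced members lie next to each other on the minus strand of chromosome 5, Cxcl9 at chr5:92321347-92328079, Cxcl10 at chr5:92346638-92348889 and Cxcl11 at chr5:92359544-92365485. The 250 bases before Cxcl10 are shown because this gene reversed its order between genotypes with LPS. Capitals mark 1 match to GAAANNGAAA, the core of interferon-stimulated response elements, and 2 matches to the NF-kB consensus, searched on both strands.
Cxcl10, chr5:92348890-92349139, minus strand: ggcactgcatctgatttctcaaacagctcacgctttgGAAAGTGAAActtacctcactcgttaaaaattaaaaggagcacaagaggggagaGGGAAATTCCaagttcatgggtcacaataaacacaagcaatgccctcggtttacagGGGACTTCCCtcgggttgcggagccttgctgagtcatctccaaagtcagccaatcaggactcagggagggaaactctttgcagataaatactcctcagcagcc
GAAAGTGAAA reached from 213 to 204 bases before the start, GGGAAATTCC from 159 to 150 and GGGACTTCCC from 103 to 94. GAAANNGAAA was found in 2.98% of all promoter windows. Of the 7 members with a RefSeq promoter, 4 held the NF-kB consensus (Cxcl1, Cxcl2, Cxcl3, Cxcl10), 2 held GAAANNGAAA (Cxcl10, Cxcl14) and 1 held the palindrome TTCNNNGAA (Cxcl14, against 7.02% of all windows). Cxcl9 held none of them.

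Cxcl10 (ENSMUSG00000034855.13), known as IP-10, had 12.6 and 8.27 CPM in untreated WT and 2.54 and 1.39 CPM in untreated 3xGrk-/- libraries, from 66 and 59 reads against 17 and 8. With LPS the levels were 35.2 and 43.2 CPM in WT and 177 and 166 CPM in 3xGrk-/- cells. The libraries did not overlap in either state, and the group that was low without LPS was the high one with it. Cxcl10 was 5.0-fold lower in untreated 3xGrk-/- cells (log2 -2.32, SE 0.274, adjusted p = 2.03e-16) and 4.35-fold higher after LPS (log2 2.12, SE 0.0913, adjusted p = 3.73e-14). Without LPS Cxcl10 passed the filter on low counts only through the WT libraries, and with LPS through both groups. The rise with LPS was 3.88-fold in WT (log2 1.96, SE 0.157) and 84.5-fold in 3xGrk-/- cells (log2 6.40, SE 0.169). The difference between these responses was 4.44 on the log2 scale (SE 0.305, adjusted p = 2.25e-12). Art3, which overlaps Cxcl10 on the opposite strand, had at most 1 read in any library.

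Cxcl9 (ENSMUSG00000029417.9), known as MIG, had 6 and 2 reads in untreated WT and 2 and 2 in untreated 3xGrk-/- cells, and the ratio of 0.497 had an exact 95% interval from 0.110 to 1.86, so a difference was not detectable at this depth. After LPS there were 14 and 11 reads in WT (2.54 and 1.70 CPM) and 33 and 58 reads in 3xGrk-/- cells (6.0 and 9.4 CPM). The LPS-treated libraries of the genotypes did not overlap, and the genotype effect was 1.89 (SE 0.331, adjusted p = 6.53e-05), a call lost at a coefficient of variation of 0.4 (adjusted p = 0.0717), as were the calls on the WT response (adjusted p = 0.260) and on the difference of the responses (adjusted p = 0.704). The responses to LPS were 1.66 in WT (SE 0.596, adjusted p = 0.0162) and 4.51 in 3xGrk-/- cells (SE 0.508, adjusted p = 9.45e-09). Their difference of 2.85 was called (SE 0.994, adjusted p = 0.0248), but not without untreated WT replicate 1 (1.72, adjusted p = 0.442), untreated 3xGrk-/- replicate 1 (2.75, adjusted p = 0.0829) or 2 (2.95, adjusted p = 0.0564), LPS-treated 3xGrk-/- replicate 2 (2.48, adjusted p = 0.0681) or in DESeq2 (2.93, adjusted p = 0.0527). The WT response likewise lost its call without untreated replicate 2 (0.86), without LPS-treated replicate 1 (1.37) and in DESeq2 (1.66, adjusted p = 0.0562).

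Cxcl11 (ENSMUSG00000060183.6), the ligand known as I-TAC, is annotated as a polymorphic pseudogene, and C57BL/6 mice carry an allele without the intact reading frame. It had 0 and 1 reads in each untreated group, 6 and 13 reads in LPS-treated WT (1.09 and 2.01 CPM) and 135 and 162 reads in LPS-treated 3xGrk-/- libraries (24.5 and 26.3 CPM). The transcript was thus near absent without LPS in both genotypes and highest in LPS-treated 3xGrk-/- cells. The genotype effect with LPS was 3.99 (SE 0.246, adjusted p = 1.50e-11), and the ratio of pooled reads was 16.0 (exact 95% interval 10.1 to 27.0). Cxcl11 passed the filter on low counts in this comparison only through the 3xGrk-/- libraries, so the filter itself selected for a difference. The ratio of LPS-treated to untreated reads was 19.6 in WT (3.12 to 815) and 317 in 3xGrk-/- cells (56.4 to 12552). The difference of 3.99 between the responses did not pass the test (SE 2.32, adjusted p = 0.202), with 1 read in each untreated group behind it. Of the 50-base stretches of Cxcl11, 40.4% also occur in another gene model, mostly in Gm2673 on the opposite strand, which had 0 reads in all libraries.

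Cxcl16 (ENSMUSG00000018920.11, chr11:70453983-70459984, minus strand) is made as a membrane-bound protein that takes up oxidized lipids, and it is shed as the ligand of Cxcr6. Its level was 457 and 458 CPM in untreated WT, 546 and 558 CPM in untreated 3xGrk-/-, 758 and 829.6 CPM in LPS-treated WT, and 1231 and 1244 CPM in LPS-treated 3xGrk-/- libraries. The 4 groups were ordered without overlap. The genotype effect was 1.21-fold without LPS (log2 0.27, SE 0.0391, adjusted p = 3.16e-11) and 1.56-fold with LPS (log2 0.64, SE 0.0566, adjusted p = 5.37e-09). LPS raised it 1.74-fold in WT and 2.24-fold in 3xGrk-/- cells, and the difference of 0.37 passed the test (SE 0.0688, adjusted p = 0.000103). Zmynd15 overlaps Cxcl16 on the opposite strand and had 136 to 386 reads per library, so with an unknown strand setting a few of the Cxcl16 reads could belong to it. At an assumed coefficient of variation of 0.4 no genotype effect on Cxcl16 was called (adjusted p = 1.0 without and 0.997 with LPS), nor its response in WT (adjusted p = 0.621) or 3xGrk-/- cells (adjusted p = 0.329), nor the difference (adjusted p = 1.0).

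Across the LPS responses, 8 members were higher and 1 was lower in WT (background 29.5% higher and 30.8% lower of 12541 genes tested), and 8 were higher and 2 lower in 3xGrk-/- cells (background 28% and 27.4%). In this fit of all 8 libraries, Cxcl9 passed the filter only through the LPS-treated groups, Cxcl11 only through LPS-treated 3xGrk-/- cells, and Cxcl5 and Cxcl14 only through 3xGrk-/- cells. The response differed between genotypes for 4 members, larger in 3xGrk-/- cells for Cxcl9, Cxcl10 and Cxcl16 and smaller for Cxcl3, where the difference (3xGrk-/- minus WT) was called positive for 16.5% and negative for 16% of all genes. The share of members with a difference, 4 of 10, stood beside 32.5% of all genes. Libraries of treated and untreated cells did not overlap for 9 members in WT (78.2% of all genes) and for 10 in 3xGrk-/- cells (77.6%). At a coefficient of variation of 0.4, 6 members were called in WT (8.85% of all genes), 6 in 3xGrk-/- cells (6.78%) and 1, Cxcl10, in the difference (0.574%).

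**Figure D3:**
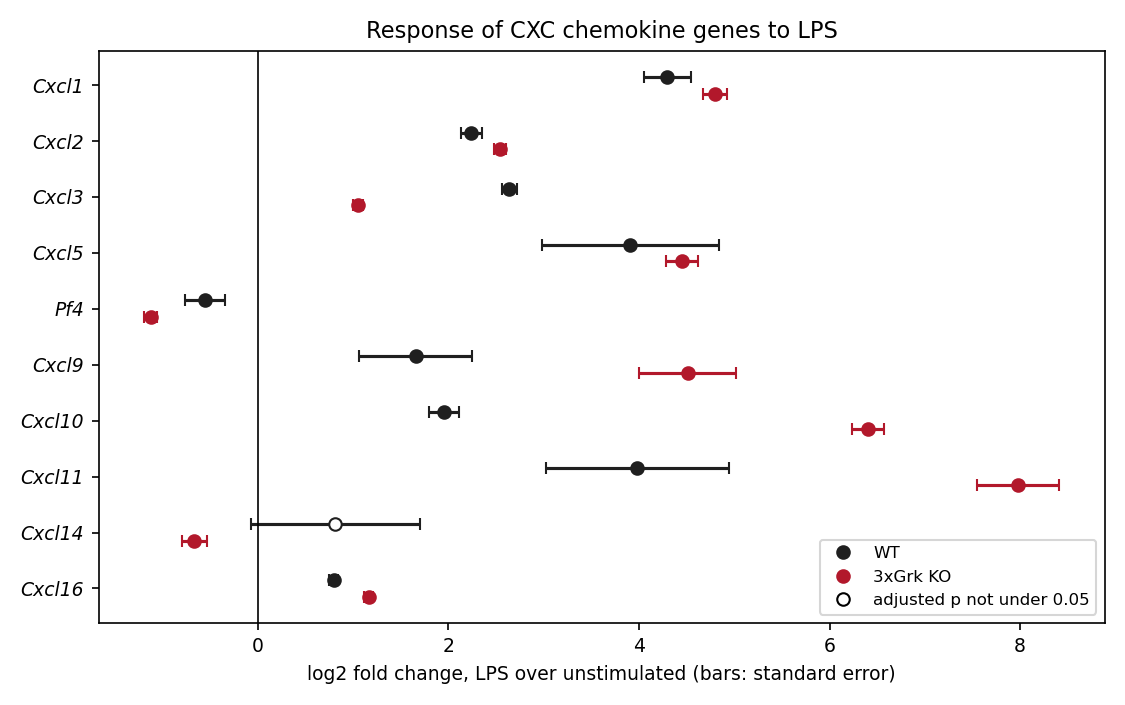
Log2 fold change of LPS-treated over untreated cells (horizontal axis; bars are the standard error) for each member, WT in black and 3xGrk-/- in red, 2 libraries per group, with an open point where the adjusted p was not under 0.05. The pairs of points lie far apart for Cxcl10 (1.96 and 6.40) and near each other for Cxcl2 (2.24 and 2.54), and Cxcl3 is the member called with the smaller response in 3xGrk-/- cells.

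To compare members with each other, CPM were divided by the length of all annotated exons in kb. The summed level was 179.7 CPM per kb in untreated WT, 368 in LPS-treated WT, 760.4 in untreated 3xGrk-/- and 1317 in LPS-treated 3xGrk-/- cells. Cxcl16 led in WT, with 84.2% of the sum without and 71.4% with LPS. In untreated 3xGrk-/- cells Pf4 led with 357 CPM per kb (46.9%), followed by Cxcl16 with 183 and Cxcl3 with 163. After LPS the order in 3xGrk-/- cells was Cxcl16 with 409.7, Cxcl3 with 338, Cxcl2 with 199 and Pf4 with 164 CPM per kb, then Cxcl1 and Cxcl10 with 76.6 and 76.1.

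Neighbours in this order whose libraries overlapped were Cxcl1 and Cxcl10 in LPS-treated 3xGrk-/- cells, Cxcl3 and Cxcl2 and the 4 lowest members in untreated WT cells, and Cxcl5 and Cxcl9 as well as Cxcl11 and Cxcl14 in LPS-treated WT cells. The order and the sums depend on the length used. With the longest transcript of coding type, Cxcl3 led in both 3xGrk-/- groups, and the share of Cxcl16 there was 16.1% without and 19.3% with LPS in place of 24% and 31.1%. The sums were then 219.5 CPM per kb in untreated WT, 521 in LPS-treated WT, 1268 in untreated 3xGrk-/- and 2381 in LPS-treated 3xGrk-/- cells.

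**Figure D4:**
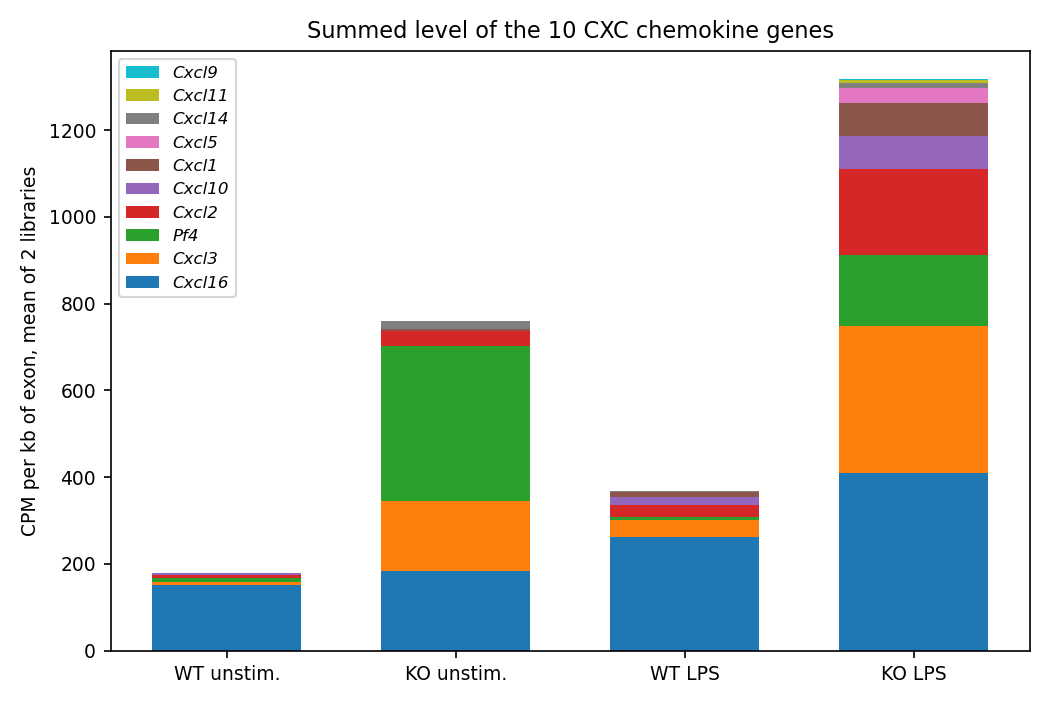
Summed level of the 10 members in CPM per kb of exon (vertical axis, starting at 0) as the mean of 2 libraries, stacked by gene for the 4 groups. WT bars, 179.7 and 368 high, are mostly Cxcl16, and the bars of 3xGrk-/- cells, 760.4 and 1317 high, also hold wide bands of Cxcl3 and Pf4.

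The ELR genes and Pf4 lie within 146579 bases of each other and the interferon-induced members within 44139 bases. Of the genes between Cxcl5 and Cxcl2 that had enough reads, Ppbp (chr5:90768518-90770063), the precursor of a platelet-derived Cxcr2 ligand, was also higher in 3xGrk-/- cells. It had 11.5 and 11.1 CPM in untreated WT, 65.8 and 70.2 CPM in untreated 3xGrk-/-, 1.81 and 0.464 CPM in LPS-treated WT, and 3.45 and 6.65 CPM in LPS-treated 3xGrk-/- libraries. Its genotype effect was 2.59 in untreated cells (adjusted p = 1.07e-103) and 2.22 in LPS-treated cells (adjusted p = 0.000489), and its response to LPS was -3.35 in WT and -3.72 in 3xGrk-/- cells. Pf4 and Ppbp, next to each other, thus were lower with LPS, while Cxcl5 before them and Cxcl3 behind them were higher.

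Outside the first cluster, Mthfd2l next to Cxcl2 was higher in untreated 3xGrk-/- cells (0.99, adjusted p = 0.000605) but not called with LPS (0.11, adjusted p = 0.773). Beside the second cluster, Naaa was lower in 3xGrk-/- cells (-1.53 without and -0.31 with LPS), as was Sdad1 (-0.57 and -0.61), while Nup54 was not called (-0.15, adjusted p = 0.260, and 0.11, adjusted p = 0.50). Scarb2 was called with LPS (0.28, adjusted p = 0.00313) and not without (0.10, adjusted p = 0.168).

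**Figure D5:**
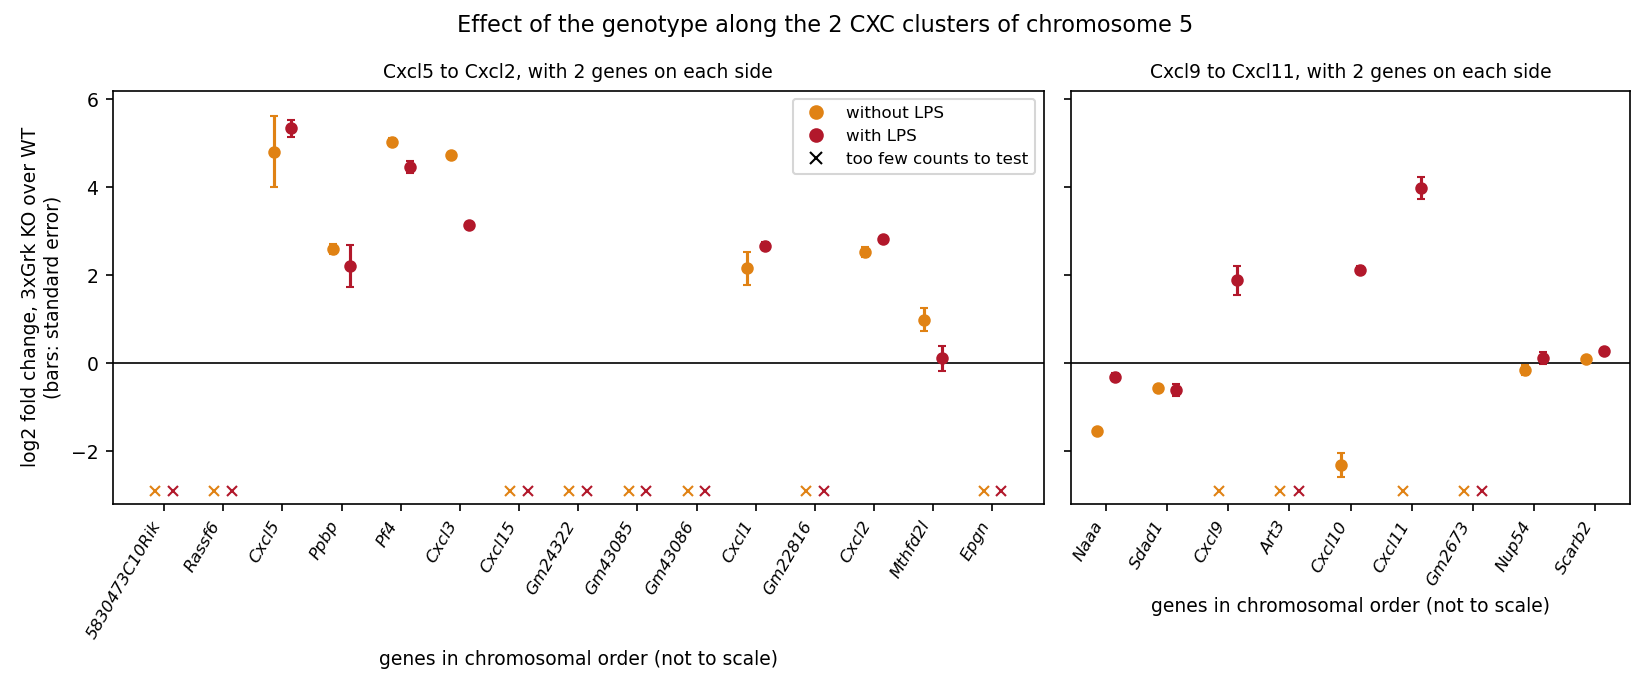
Log2 fold change of 3xGrk-/- over WT (vertical axis; bars are the standard error) for genes in chromosomal order along the ELR cluster (left) and the interferon-induced cluster (right) with 2 genes on each side, without LPS in orange and with LPS in red; crosses at the bottom mark genes with too few reads. Effects of the tested genes from Cxcl5 to Cxcl2 are all above 2. Of the genes flanking that cluster only Mthfd2l could be tested (0.99 without and 0.11 with LPS). Genes flanking the interferon-induced cluster lie between -1.53 and 0.28.

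The members' log2 CPM were correlated over the 8 libraries as a description. The libraries form 4 groups of 2, so that such values mostly compare group patterns, and they share the scaling of each library. The pairs most alike were Cxcl1 and Cxcl16 (Pearson's r = 0.99), Cxcl2 and Cxcl5 (0.98), and Pf4 and Cxcl14 (0.98). Cxcl9 and Cxcl10 had 0.94, and Pf4 and Cxcl10 had -0.19. Among 9149 or 9150 other genes with a mean log2 CPM of at least 3, the patterns most like that of Cxcl1 were those of Atf3, Grb2 and Cd274, and those most like Cxcl2 were Vdr, Osbpl2 and Btg1. Cxcl3 was followed most closely by Rai14, Gch1 and Pgk1, Cxcl5 by M6pr, Lgmn and Pltp, and Pf4 by Clu, Ptgr1 and Slc39a14. The nearest patterns to Cxcl10 were those of Sh3d21, Ifi205 and Ifit2, to Cxcl14 those of Per2, Twf1 and Ccl9, and to Cxcl16 those of Casp4, Grb2 and Slfn2, and r lay between 0.990 and 0.999 for all of these.

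Receptors of these ligands were read in the same libraries. Cxcr2, the receptor of the ELR members, had 22.2 and 20.5 CPM in untreated WT and 11.4 and 13.2 CPM in untreated 3xGrk-/- libraries, and 5.08 and 4.64 against 2.36 and 2.59 CPM with LPS. It was lower in untreated 3xGrk-/- cells (log2 -0.79, adjusted p = 9.28e-07) and in LPS-treated ones (-0.96, adjusted p = 0.0159), and its response to LPS was -2.13 in WT and -2.29 in 3xGrk-/- cells. Cxcl1, Cxcl2, Cxcl3 and Cxcl5, ligands of Cxcr2, were thus higher where Cxcr2 was lower in each of these comparisons. Ppbp, the precursor of a further Cxcr2 ligand, was also higher in 3xGrk-/- cells. With LPS, however, Ppbp fell as Cxcr2 did, by -3.35 in WT and -3.72 in 3xGrk-/- cells. Cxcr3, the receptor of Cxcl9, Cxcl10 and Cxcl11, had no read except 5 and 5 in LPS-treated 3xGrk-/- libraries. Cxcr6, the receptor of Cxcl16, had at most 1 read and Cxcr1 none.

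Cxcr4 was not called between untreated genotypes (-0.15, adjusted p = 0.111) and was higher in 3xGrk-/- cells with LPS (0.49, adjusted p = 9.82e-06), a difference between effects of 0.64 (adjusted p = 1.46e-05). Cxcr5 rose with LPS in both genotypes, by 3.38 and 3.44 on the log2 scale. Of the remaining CXC ligands, Cxcl12 had at most 5 reads per library, and Cxcl13, Cxcl15 and Cxcl17 had none. Markers of neutrophils, which carry Cxcr2, were present at a summed 723 to 769 CPM in untreated WT, 533 to 549 CPM in untreated 3xGrk-/-, 350.4 to 406 CPM in LPS-treated WT and 211 to 234 CPM in LPS-treated 3xGrk-/- cells. Of 10 such genes 6 were lower and none higher in 3xGrk-/- than in WT cells without LPS. Among LPS-treated cells 6 of 9 were lower and 1 higher in 3xGrk-/- cells. Of all genes 22.7% were lower and 22.1% higher without LPS, and 24% lower and 24.7% higher with it. T and NK markers summed to at most 1.40 CPM.

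Genes of the pathways that act on CXC chemokines were counted from lists of known members, beside 22.1% of all genes higher and 22.7% lower in 3xGrk-/- cells without LPS, and 24.7% higher and 24% lower with LPS. Of 15 NF-kB pathway genes, 10 were higher and 2 lower in untreated 3xGrk-/- cells, and 5 were higher and 4 lower with LPS, with medians of 0.31 and 0.13. Cd14, the LPS co-receptor, was higher in 3xGrk-/- than in WT cells in both states (1.25 and 2.51), as was Tlr4 (1.19 and 1.03). Nfkbiz, an NF-kB cofactor, was higher in 3xGrk-/- than in WT cells without LPS (0.71) and lower with LPS (-0.23). Of 18 interferon pathway genes 16 were tested, of which 8 were higher and 3 lower without LPS and 6 higher and 4 lower with LPS, with medians of 0.16 and 0.06. Cxcl10 was lower in untreated 3xGrk-/- cells while Irf7 (0.89, adjusted p = 2.02e-06) and Irf8 (0.82, adjusted p = 1.62e-84) were higher there. Among LPS-treated cells, Irf7 (1.42) and Ifnar2 (1.59) were higher and Irf8 was lower (-0.59) in 3xGrk-/- than in WT cells. Ifnb1, which encodes interferon beta, had 5 and 12 reads in LPS-treated and 1 and 0 in untreated 3xGrk-/- libraries and none in WT, and Ifng had none.

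Chemokine transcripts are short-lived. Of 7 genes of mRNA decay, 3 were higher and none lower in 3xGrk-/- than in WT cells without LPS. Among LPS-treated cells 2 were higher and 2 lower in 3xGrk-/- cells, against the same shares of all genes. Zfp36l2, which promotes decay of AU-rich transcripts, was higher in LPS-treated 3xGrk-/- than in LPS-treated WT cells (2.05, adjusted p = 3.74e-12). It was lower with LPS in both genotypes, with responses of -2.67 in WT and -0.91 in 3xGrk-/- cells. Of 7 proteases that trim or shed chemokines, 5 were higher and 1 lower without LPS, and 5 were higher and 2 lower with LPS, beside those shares again. Mmp8 (2.84 and 3.85), Mmp12 (2.51 and 3.68) and Mmp9 (1.85 and 2.06) were among the higher ones in both states.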

How the data were processed

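RNA from BMDCs of 4 groups, with 2 libraries each, was prepared with a stranded mRNA protocol. The authors aligned the reads to mm10 with STAR and counted them per gene with featureCounts; the annotation release and strand setting are not given in the sources used here. The deposited values are raw counts, in 1 table for untreated and 1 for LPS-treated cells. Gene names came from GENCODE M21 (GRCm38): 47224 of 47937 IDs matched without their version, and 0.0847% of counts lay on IDs without a match.

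Genotype effects were fitted within each table with edgeR 4.0.16 in R 4.3.3 (TMM scaling, filterByExpr, glmQLFit, glmQLFTest, Benjamini-Hochberg over all genes, adjusted p under 0.05), and LPS responses and their difference in 1 fit of all 8 libraries. The SE is the log2 fold change divided by the square root of F, and intervals of fitted differences are the normal 95% intervals from it. Reads of low members are compared as pooled ratios with exact 95% intervals, which cover counting error only. With 2 libraries a group, an exact permutation test cannot go below p = 0.333. Motifs were chosen after the promoter windows had been seen. Promoters were found for 7 of 10 members and were cut before the earliest start in RefSeq or GENCODE.

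The members, lists and tests were chosen with earlier results of these data known. Genes outside the members are named if they are receptors or other CXC ligands, cluster neighbours, the 3 most like patterns per member, or the 2 called genes of largest log2 fold change per list and comparison; a few list genes are not reported here by name. Each fit was tested on simulated data. Replicate libraries differed beyond counting noise (mean chi-square per gene 1.59 to 9.02), so none was counted as a copy. The median chi-square was only 1.16 to 1.92 times its value under counting noise. The 9.02 belongs to LPS-treated 3xGrk-/- cells, whose 2 libraries differ in Gm42418, and the median ratio there was 1.30. Same-numbered libraries did not deviate together (r between -0.0654 and 0.0718), so the numbers were not taken as pairs. Alternatives were DESeq2 1.42.0, other scalings and filters, all libraries in 1 fit, a replicate block, an assumed coefficient of variation of 0.4, leaving out each library, other transcript lengths and, both chosen after seeing the data, leaving out Gm42418 and the length of the longest coding-type transcript.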

Additional observations from a re-analysis of the deposited data

Results flagged for a closer look

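For 4 members the effect of the genotype differed between LPS-treated and untreated cells by the test of the difference itself, in edgeR's quasi-likelihood fit of all 8 libraries. The log2 fold change of 3xGrk-/- over WT was higher with LPS by 4.44 for Cxcl10, by 2.85 for Cxcl9 and by 0.37 for Cxcl16, and for Cxcl3 the difference was -1.59. Cxcl10 changed its order between the genotypes, whereas Cxcl3 and Cxcl16 were higher in 3xGrk-/- cells in both states. Cxcl9 rests on 2 to 6 reads per untreated library, and its difference was no longer called in DESeq2 (adjusted p = 0.0527) or on leaving out any of 4 libraries, untreated WT replicate 1, either untreated 3xGrk-/- replicate or LPS-treated 3xGrk-/- replicate 2 (adjusted p = 0.0564 to 0.442). With an assumed coefficient of variation of 0.4, 1 of these differences, that of Cxcl10, was called. Of all genes tested, 32.5% had such a difference.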

How the results depend on the processing

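Of 689 values of members recomputed under an alternative, 660 kept their direction and side of the threshold, 25 were no longer called, 4 became called and 0 changed sign. With at least 10 counts in every library, which tests fewer genes, the members called were 4 higher and 0 lower in the genotype effect without LPS, 7 and 0 in that with LPS, 3 and 1 in the LPS response of WT, 3 and 1 in that of 3xGrk-/- cells, and 1 with a positive and 1 with a negative difference of the responses (3xGrk-/- minus WT). DESeq2 called 0 members lower with LPS in WT. A coefficient of variation of 0.4, where the libraries gave 0.0306 to 0.0573, left 0 members lower with LPS in either genotype, 1 with a positive difference (Cxcl10) and 0 with a negative one, and ended the call of Cxcl1 without LPS (adjusted p = 0.0555) and Cxcl9 with LPS (adjusted p = 0.0717); the cause was not tested. Leaving out 1 library at a time, members lower with LPS in WT numbered 0 to 1, and members with a negative difference 1 to 3. The 3 came without untreated WT replicate 2, when Pf4 and Cxcl14 joined Cxcl3; without LPS-treated WT replicate 1 Cxcl2 had a called positive difference (0.38, adjusted p = 0.0425). Fitted log2 fold changes without LPS ranged from 4.15 to 7.06 for Cxcl5 and from 5.86 to 10.6 for Cxcl14 over all alternatives, the widest for genes with 0 to 4 WT reads.

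With library size only, the median of all genes shifted to -0.23 in both LPS responses, and the response of Grk6 in WT became -0.017 (adjusted p = 0.863) and that of H2-Ab1 in 3xGrk-/- cells -0.13 (adjusted p = 0.0175). The replicate block gave 5292, 5654, 7438, 6793 and 3884 called genes in place of 5369, 5754, 7561, 6945 and 4070, for the genotype effect without and with LPS, the LPS response of WT and of 3xGrk-/- cells and their difference, and changed no call on a member. DESeq2 called 3086, 3934, 5854, 5159 and 2643 genes. The share of Cxcl16 in the members' sum per kb was 84.6% in untreated WT, 73.3% in LPS-treated WT and 32.7% in LPS-treated 3xGrk-/- cells with the longest transcript, and 77.2%, 56.5% and 19.3%, with 16.1% in untreated 3xGrk-/- cells, with the longest coding-type transcript. Depth limits Cxcl9, Cxcl11, Cxcl5 and Cxcl14 in the groups where they had few reads.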
